A study of Mus musculus with 6 samples.

Results

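The genes examined here carry interferon signals or sense foreign RNA in mouse blood progenitors: the transcription factor genes Irf1, Irf2, Irf3, Irf7, Irf9 and Stat2, the RNA sensor genes Ifih1 and Ddx58, and the receptor gene Ifnar1. They were taken by name from the deposited table, which held all 9 of them among 18491 genes, and all 9 passed the filter on low counts that left 15474 genes for testing. RNA had been sequenced from 6 libraries of bone marrow cells, sorted as blood stem and progenitor cells 8 months after poly(I:C), a mimic of viral double-stranded RNA, was injected. All 6 libraries, WT and KO alike, are listed with 3 doses. The 3 wild-type libraries (WT) carry a scramble shRNA control as their labelled treatment. The 3 knockout libraries (KO) are given as a Robo1 knockout made with Mx1-cre after 3 doses of poly(I:C) in the series' design, but as ROBO1 knockdown in their genotype field and as shROBO1 in their titles, and the treatments listed for them are knockdown of ROBO1, of ROBO2 and of ROBO3, 1 per library. Robo1 is a receptor for Slit guidance proteins, and it was not analysed here, so the group labels were not checked against its transcript. Strain, sex and age were not given in the sources used here, nor was it said that each library came from its own animal. A p-value here sets a difference against the scatter among libraries, and that scatter may be technical only.

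The pathway runs in a loop. Ifih1 encodes MDA5 and Ddx58 encodes RIG-I (the gene is now also named Rigi), cytosolic helicases that bind viral double-stranded RNA, and signal through the adaptor MAVS to the transcription factors IRF3 and IRF7. These switch on type I interferon genes, and secreted interferon binds a receptor made of IFNAR1 and IFNAR2. The receptor's Janus kinases phosphorylate STAT2, which joins IRF9 in a complex called ISGF3 that binds the interferon-stimulated response element (ISRE). Irf7, Stat2, Irf9, Ifih1 and Ddx58 are known as interferon-induced genes themselves, whereas Irf3 is known for steady expression. In blood stem cells, interferon is known to drive quiescent cells into cycle, and IRF2 is known as an antagonist that protects them from it. The Mx1 promoter, which drives the Cre named in the series' design, is itself interferon-inducible.

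The control sequences of these genes are shown because the ISRE is the site at which ISGF3 and the IRF proteins act. RefSeq promoters of GRCm38.p6 (250 bases before to 50 after each annotated start) were matched for all 9 genes, with 11 start sites among them. The ISRE core, read as TTTC, any 2 bases and TTTC and searched on both strands, was found in 4 of these 11 windows, 1 each in Stat2, Irf2, Ifih1 and Ddx58, and in 3.44% of all 32851 promoters. The core of the gamma-activated site, TTCNNNGAA, which reads the same on both strands, was found in 3 windows, in Irf1, Irf2 and Ifnar1, and in 8.3% of all promoters. The printed matches overlap no match to the other motif. Matches are in capitals, the strand is that of the gene, and the lines give 30 bases around each ISRE core match.
Stat2, chr10:128270266-128270295, plus strand: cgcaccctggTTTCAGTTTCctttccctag
Irf2, chr8:46739495-46739524, plus strand: tggggaagtGAAAATGAAAttgacttTTCC
Ifih1, chr2:62646206-62646235, minus strand: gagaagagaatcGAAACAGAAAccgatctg
Ddx58, chr4:40239804-40239833, minus strand: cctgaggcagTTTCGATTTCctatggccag
The capitals at the end of the Irf2 line begin its gamma-activated site match. The Stat2 and Irf2 matches begin at positions -222 and -241 from the annotated start, and those of Ddx58 and Ifih1 at positions 3 and 33, within the transcript.

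For contrast, the lines below give the 250 bases before the start for Irf7, the gene with the lowest fold change of the 9 and no match to either motif, and for the first start of Irf1, the only one of the 9 that rose under the TMM scaling described with the depths, with its gamma-activated site core at position -90.
Irf7, chr7:141266425-141266674, minus strand: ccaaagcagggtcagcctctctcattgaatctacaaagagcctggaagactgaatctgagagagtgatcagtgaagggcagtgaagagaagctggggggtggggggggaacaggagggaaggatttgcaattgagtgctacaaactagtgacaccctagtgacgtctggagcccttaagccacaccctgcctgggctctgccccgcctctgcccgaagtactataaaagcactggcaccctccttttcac
Irf1, chr11:53769764-53770013, plus strand: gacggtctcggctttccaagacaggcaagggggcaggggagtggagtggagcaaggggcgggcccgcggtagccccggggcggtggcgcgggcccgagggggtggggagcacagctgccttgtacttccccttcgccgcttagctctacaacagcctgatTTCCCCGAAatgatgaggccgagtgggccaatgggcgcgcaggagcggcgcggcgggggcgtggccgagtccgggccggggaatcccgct
The windows of Irf3 and Irf9 likewise held neither motif, which says only that these letters are not in these windows.

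Depth and composition bear on every value. Libraries held 42235077 to 58106099 counts, and the 100 most abundant genes took 41.8 to 43.0% of them in WT and 59.2 to 60.4% in KO. Levels are therefore given in CPM, a gene's counts scaled to a common library size, with library sizes adjusted by the trimmed mean of M values (TMM), a scaling that centres on the bulk of genes, and fold changes by total counts are set beside them. The median log2 fold change of all genes was -0.09 under TMM and -1.22 under total counts, a shift of -1.13. All 12 listed stem and progenitor markers, Kit, Cd34 and Flt3 among them, had counts in every library and summed to 225 to 233 CPM in WT and 244 to 253 CPM in KO. Neutrophil genes, many of which granulocyte progenitors also express, summed to 84991 to 95341 CPM in WT and 265369 to 281254 CPM in KO. By total counts they summed to 128904 to 136907 and 181793 to 185639 CPM. Of 12 such genes 8 rose and 1, Cebpe, fell under TMM, where 17.2% of all genes rose and 14.4% fell, and Ly6g was at 0 in at least 1 library. With offsets for exon length and GC content Ngp and Retnlg were no longer called, and Camp was called lower, at -0.85 on the log2 scale.

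Under TMM the 9 genes divided. Irf7, Stat2, Irf9 and Irf2 fell in KO, Irf1 rose, and Irf3, Ifnar1, Ifih1 and Ddx58 did not pass the test (edgeR's quasi-likelihood test, Benjamini-Hochberg adjusted p under 0.05 over all genes tested). Over all genes 14.4% were called lower and 17.2% higher. The median log2 fold change of the 9 genes was -0.64, against -0.09 for all genes. By total counts 9 of the 9 genes were called lower, where 70.7% of all genes were, and 0 were called higher, where 4.24% were. None of the 9 had a positive log2 fold change by total counts, so 0 were higher at an unadjusted p under 0.05 too, and DESeq2 with its own size factors called 1 higher, where it called 15.3% of all genes higher. In bulk RNA, fewer cells of a type and less RNA per cell cannot be told apart.

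**Figure D1:**
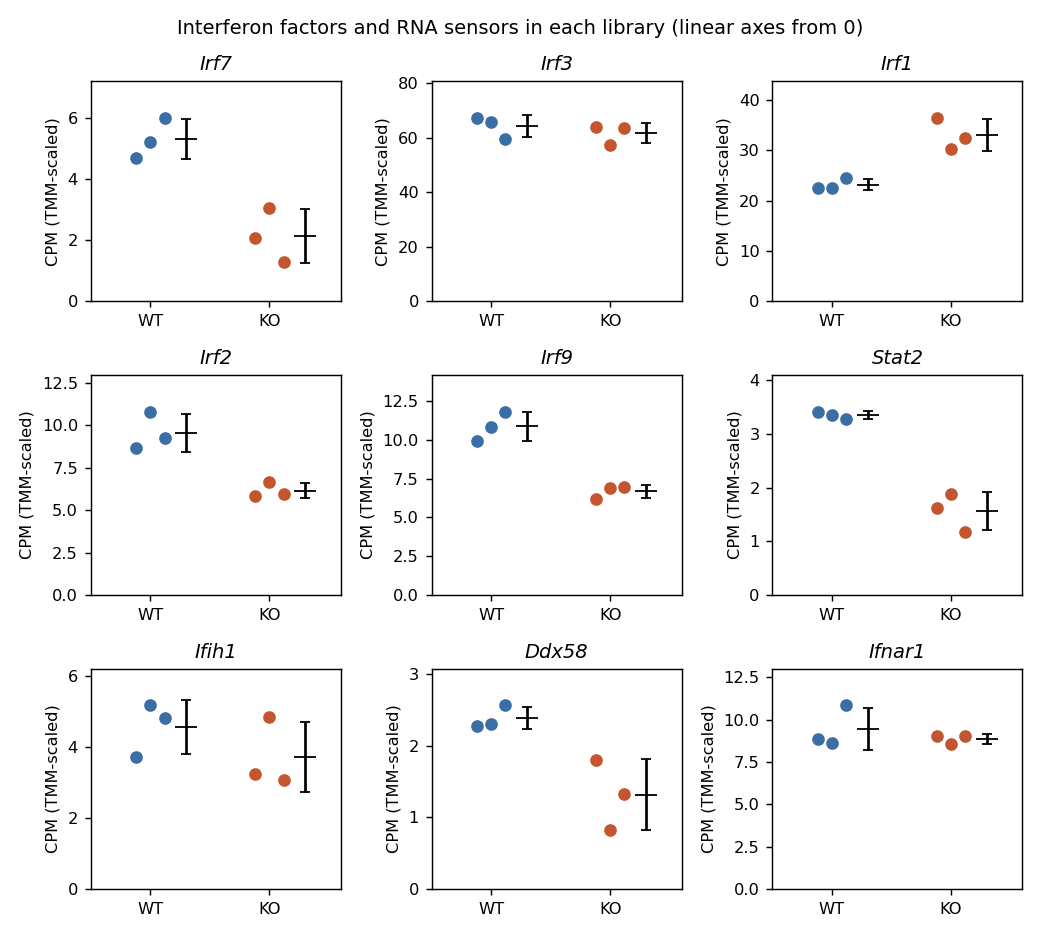
TMM-scaled CPM of each of the 9 genes in every library, with 3 WT points and 3 KO points per panel and the mean with its SD beside them, on linear axes from 0. KO points lie wholly below WT points for Irf7, Irf2, Irf9, Stat2 and Ddx58, and wholly above them for Irf1; the groups overlap for Irf3, Ifih1 and Ifnar1.

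Irf7 (ENSMUSG00000025498, chromosome 7, 141262706 to 141266481, minus strand, GRCm38) encodes the IRF that amplifies type I interferon production. It stood at 4.69, 5.19 and 5.99 CPM in WT and at 2.07, 3.05 and 1.29 CPM in KO. Every KO library lay below every WT library, and the KO libraries spread more widely relative to their mean. The means were 5.29 ± 0.659 and 2.14 ± 0.884 CPM (SD, n = 3 each), 2.46-fold lower in KO, or -1.30 in log2 terms (SE 0.28, edgeR adjusted p = 0.00682). Raw counts were 300 to 519 in WT and 37 to 108 in KO.

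Irf3 (ENSMUSG00000003184, chromosome 7, 44997648 to 45002848, plus strand), the IRF that acts directly below the sensors, was the most abundant of the 9. It stood at 67.3, 66.0 and 59.6 CPM in WT and at 64.1, 57.3 and 63.5 CPM in KO, and the groups overlapped. Its log2 fold change was -0.06 (95% interval -0.24 to 0.12, edgeR adjusted p = 0.63). The interval excludes a 2-fold change either way under TMM, while by total counts Irf3 was called lower at -1.19.

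Stat2 and Irf9, subunit genes of ISGF3, both fell. Stat2 (ENSMUSG00000040033, chromosome 10, 128270559 to 128292849, plus strand) stood at 3.42, 3.36 and 3.28 CPM in WT and at 1.62, 1.89 and 1.18 CPM in KO. The 3 WT values lay close together and all 3 KO values lay below them. Stat2 fell 2.13-fold, or -1.09 in log2 terms (SE 0.23, edgeR adjusted p = 0.00565). Irf9 (ENSMUSG00000002325, chromosome 14, 55603571 to 55610030, plus strand), the DNA-binding subunit, stood at 9.92, 10.9 and 11.8 CPM in WT and at 6.21, 6.92 and 6.96 CPM in KO. The groups did not overlap, and Irf9 fell 1.62-fold, or -0.70 in log2 terms (SE 0.12, edgeR adjusted p = 0.00224).

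Irf1 and Irf2, an activator and a competing repressor at the same DNA element, moved in opposite directions under TMM. Irf1 (ENSMUSG00000018899, chromosome 11, 53770014 to 53778374, plus strand) stood at 22.5, 22.6 and 24.5 CPM in WT and at 36.5, 30.2 and 32.6 CPM in KO. All KO libraries lay above all WT libraries, and Irf1 rose 1.43-fold, or 0.51 in log2 terms (SE 0.09, edgeR adjusted p = 0.00287). By total counts Irf1 was called in the other direction, at -0.62 (edgeR adjusted p = 0.000253), so its direction depended on the scaling. Irf2 (ENSMUSG00000031627, chromosome 8, 46739732 to 46847458, plus strand) stood at 8.65, 10.8 and 9.25 CPM in WT and at 5.82, 6.64 and 5.95 CPM in KO. The groups did not overlap, and Irf2 fell 1.56-fold, or -0.64 in log2 terms (SE 0.14, edgeR adjusted p = 0.00611). Offsets for exon length and GC content left Irf2 called, at a smaller -0.42 (edgeR adjusted p = 0.0274).

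Of the sensors, Ddx58 (ENSMUSG00000040296, chromosome 4, 40203773 to 40239828, minus strand) stood at 2.28, 2.31 and 2.56 CPM in WT and at 1.81, 0.820 and 1.32 CPM in KO. The groups did not overlap, but the change of -0.85 in log2 terms did not pass (SE 0.31, edgeR adjusted p = 0.062). Its raw counts, on average the fewest of the 9 in each group, were 146 to 222 in WT and 29 to 68 in KO. Without KO replicate 1, the highest of the KO libraries, the value was -1.16 and passed (edgeR adjusted p = 0.0228). Leaving out any other library it lay between -0.87 and -0.60 and did not pass (edgeR adjusted p of 0.106 to 0.172), nor did it with length and GC offsets, at -0.64. Ifih1 (ENSMUSG00000026896, chromosome 2, 62595798 to 62646255, minus strand) stood at 3.72, 5.18 and 4.83 CPM in WT and at 3.24, 4.86 and 3.06 CPM in KO. KO replicate 2 lay among the WT values, and a change was not detectable at a log2 fold change of -0.30 (95% interval -0.80 to 0.21, edgeR adjusted p = 0.365). The value ranged from -0.54 without KO replicate 2 to -0.18 without KO replicate 3, was also nearer 0 without WT replicate 2 (-0.19), and was -0.08 with length and GC offsets, never passing.

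Ifnar1 (ENSMUSG00000022967, chromosome 16, 91485238 to 91507441, plus strand) encodes the receptor chain that binds the Janus kinase TYK2. It stood at 8.84, 8.62 and 10.8 CPM in WT and at 9.03, 8.53 and 9.05 CPM in KO. The KO values lay within the WT range apart from KO replicate 2, just below it, and the log2 fold change was -0.09 (95% interval -0.38 to 0.20, edgeR adjusted p = 0.651). That equals the median change of all genes to 2 decimals.

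**Figure D2:**
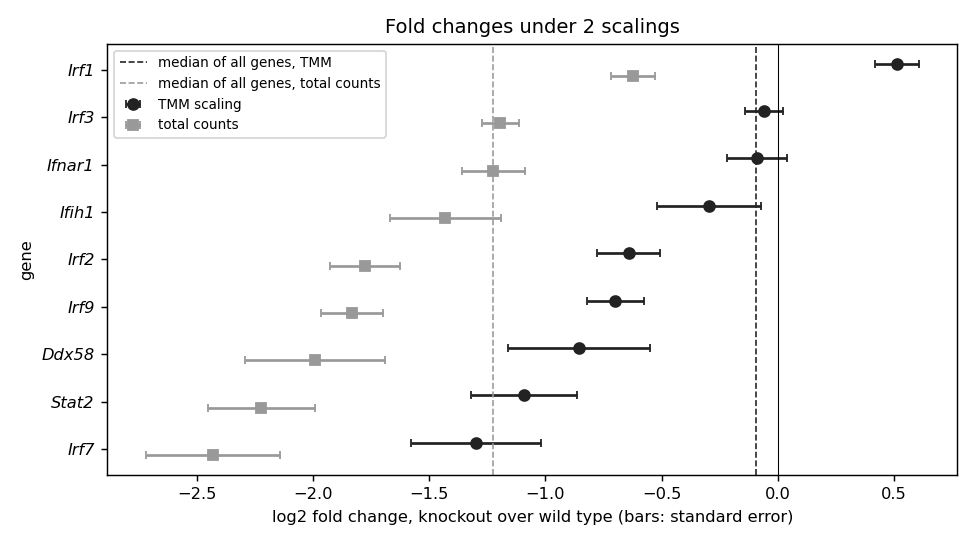
Log2 fold change, KO over WT, of the 9 genes under TMM scaling (black circles) and by total counts (grey squares), with standard errors; dashed lines mark the median of all genes under each scaling. The order of the 9 genes is the same under both, Irf7 lowest and Irf1 highest, and Irf1 lies right of 0 under TMM (0.51) and left of 0 by total counts (-0.62).

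By total counts the log2 fold change was -2.43 for Irf7, -2.22 for Stat2, -1.99 for Ddx58, -1.83 for Irf9, -1.78 for Irf2, -1.43 for Ifih1 and -1.22 for Ifnar1. The last equals the median of all genes under that scaling, so Ifnar1 moved with the bulk of genes under both. The rank of a gene's fold change among all genes hardly moved with the scaling, by at most 0.187 percentage points for these 9 genes. Under TMM 5.07% of the genes tested had a lower fold change than Irf7. The same share was 7.15% for Stat2, 10.8% for Ddx58, 14.9% for Irf9 and 16.8% for Irf2. It was 35.7% for Ifih1, 50.2% for Ifnar1, 52.1% for Irf3 and 79.8% for Irf1. Thus 6 of the 9 lay below the median gene under either scaling, and Irf1 lay in the upper part of the range. Under TMM the groups did not overlap, with KO lower, for 5 of the 9 genes (24.4% of all genes) and, with KO higher, for 1 (22.2% of all genes). By total counts KO lay wholly below WT for 9 (76.1% of all genes) and wholly above for 0 (4.85% of all genes).

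**Figure D3:**
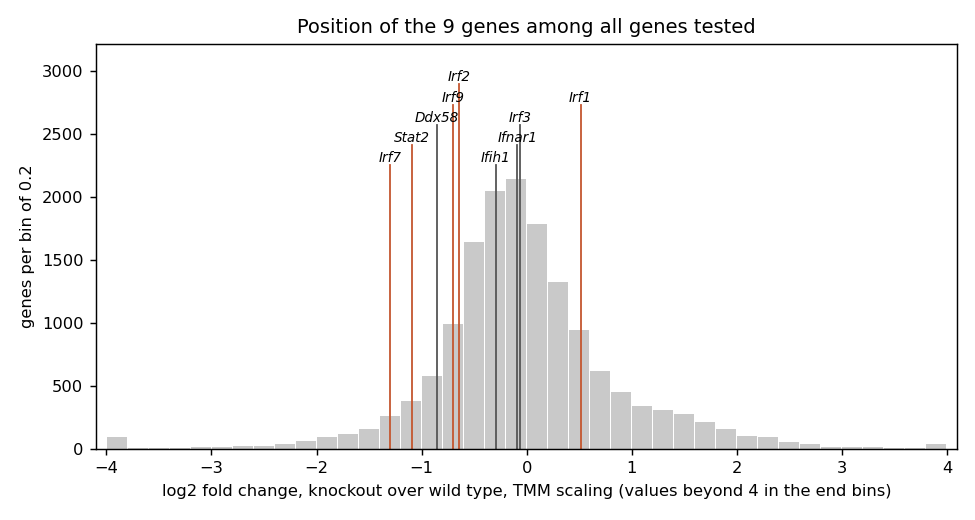
Histogram of the log2 fold change, KO over WT, of all 15474 genes tested under TMM, in bins of 0.2 with values beyond 4 in the end bins; vertical lines mark the 9 genes, in red where called. Irf7 and Stat2 stand in the left tail, Ifnar1 and Irf3 at the peak, and Irf1 to the right of it.

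The genes most like Irf7 across the 6 libraries, by the root mean square difference in log2 CPM after each gene was centred on its own mean, were Zfp445 (0.16), Prr5 (0.17) and Slc25a43 (0.18).

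A ratio of 2 genes within a library does not depend on scaling, and 5 ratios were compared. The count of Irf1 relative to Irf2 was 2.60, 2.09 and 2.64 in WT and 6.28, 4.55 and 5.47 in KO. Every KO ratio lay above every WT ratio, 2.21-fold higher by geometric mean. The ratio of Irf7 to Irf3 was 0.070, 0.079 and 0.101 in WT and 0.032, 0.053 and 0.020 in KO. It was thus 2.51-fold lower in KO without overlap.

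Within ISGF3, Stat2 relative to Irf9 was 0.345, 0.309 and 0.277 in WT and 0.261, 0.273 and 0.170 in KO, 1.35-fold lower, with the highest KO library just under the lowest WT library. KO replicate 3 set much of that difference, which was -0.43 on the log2 scale with it and -0.21 without it. Ifnar1 relative to its partner Ifnar2 was 0.150, 0.153 and 0.199 in WT and 0.116, 0.110 and 0.106 in KO, 1.50-fold lower without overlap. Ifih1 relative to Ddx58 was 1.63, 2.24 and 1.88 in WT and 1.79, 5.93 and 2.32 in KO, and the groups overlapped. Its log2 difference of 0.61 was 0.10 without KO replicate 2. The exact permutation test, two-sided, gave p = 0.1 for the 4 ratios without overlap, the smallest that 3 against 3 libraries allow (0.125 adjusted over the 5 ratios), and p = 0.4 for Ifih1 relative to Ddx58. With 3 against 3 libraries this exact test cannot reach 0.05, whatever the size of the difference.

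**Figure D4:**
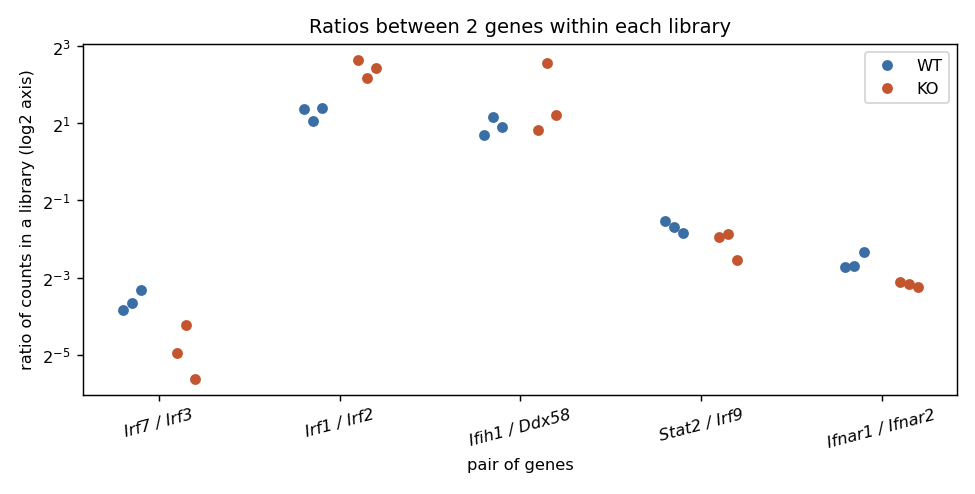
Ratio of the counts of 2 genes within each library, on a log2 axis, with 3 WT and 3 KO points per pair. KO points lie above WT points for Irf1 / Irf2 and below them for Irf7 / Irf3, Stat2 / Irf9 and Ifnar1 / Ifnar2; for Ifih1 / Ddx58 they overlap.

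Levels of different genes were compared per length, with the deposited FPKM, fragments scaled by transcript length and by the library's total. In WT the order was Irf3 at 48.2 ± 2.71, Irf1 at 14.1 ± 0.815, Irf2 at 7.00 ± 2.68, Irf9 at 5.45 ± 0.675, Ifnar1 at 4.27 ± 0.559 and Irf7 at 3.30 ± 0.291 FPKM (SD, n = 3 each). Stat2 at 1.52 ± 0.207, Ifih1 at 1.15 ± 0.282 and Ddx58 at 0.982 ± 0.113 FPKM followed. Library values overlapped between Irf2 and Irf9, between Irf9 and Ifnar1, between Stat2 and Ifih1 and between Ifih1 and Ddx58, so those neighbours did not differ beyond their spread. In KO Irf3 (21.0 ± 1.97 FPKM), Irf1 (9.12 ± 0.604 FPKM) and Irf2 (2.51 ± 0.810 FPKM) again led. Stat2, at 0.226 ± 0.0613 FPKM, came last there, after Ddx58 at 0.247 ± 0.151 FPKM, with overlapping libraries. The place of Irf2 is uncertain: per kilobase of all annotated exons it ranked 6 of 9 in WT rather than 3.

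The rest of the pathway was described with a list of 80 further genes, of which 74 were in the table used and 72 were tested. Of these, 19 were called lower, 10 higher and 43 not, at a median log2 fold change of -0.18. By total counts 57 were called lower and 0 higher, with 0 higher at an unadjusted p under 0.05 as well. Of all genes, 14.4% were called lower and 17.2% higher under TMM, and 70.7% lower by total counts. By role, 44% of 25 target genes, 42.9% of 7 sensors, 25% of 12 negative regulators and 14.3% of 7 receptor and kinase genes were called lower under TMM. The share was 11.1% of 9 transcription factor genes, 0% of 11 adaptor genes and 0% of the 1 ligand gene. Differences between roles were not tested. With length and GC offsets 14 were called higher and 18 lower.

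Among 7 other sensors tested, 3 fell and 0 rose (0 at an unadjusted p under 0.05 and 0 by DESeq2). Dhx58, which encodes LGP2, the third helicase of the family of Ddx58 and Ifih1, fell from 5.96 ± 1.19 to 2.69 ± 0.743 CPM (SD, n = 3 each; log2 -1.14, SE 0.24, edgeR adjusted p = 0.00558). Zbp1, a sensor of left-handed nucleic acid, fell by 1.56 on the log2 scale (SE 0.42), and Eif2ak2, which encodes the RNA-activated kinase PKR, fell by 0.80 (SE 0.18). Cgas, the cytosolic DNA sensor gene, stood at -0.59 and did not pass (edgeR adjusted p = 0.0707). The endosomal receptor genes Tlr3 and Tlr9 did not pass the count filter, at 0 to 26 and 0 to 23 counts per library.

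Of the 11 adaptor and kinase genes below the sensors, 2 rose and 0 fell (0 at an unadjusted p under 0.05 and 0 by DESeq2). Those that rose, Irak1 (log2 0.84, SE 0.10) and Traf6 (0.69, SE 0.15), serve Toll-like and interleukin-1 receptor signals, and by total counts both were called lower (-0.29 and -0.45). Mavs, the adaptor of MDA5 and RIG-I, stood at 10.6 CPM in WT and 10.8 CPM in KO and was not called. Tbk1, the kinase that phosphorylates IRF3, stood at 0.32 (edgeR adjusted p = 0.139), and Irak4 at 0.22 (edgeR adjusted p = 0.24). With length and GC offsets both passed, at 0.47 (edgeR adjusted p = 0.0313) and 0.39 (edgeR adjusted p = 0.043).

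Receptor and Janus kinase genes gave 2 higher, 1 lower and 4 not called of 7. Ifnar2 rose from 56.6 ± 2.15 to 80.2 ± 4.40 CPM and the type II interferon receptor gene Ifngr1 from 249 ± 9.64 to 504 ± 6.09 CPM (SD, n = 3 each). By total counts Ifnar2 was called lower (-0.63) and Ifngr1 was not called (-0.11). Il10rb, a chain shared by the receptors of interleukin-10 and of type III interferons, fell by 0.73 on the log2 scale (SE 0.12). Ifngr2 stood at 0.30 and did not pass (edgeR adjusted p = 0.0626), but passed with those offsets, at 0.41 (edgeR adjusted p = 0.0156). Of the interferon genes themselves only Ifng was in the table used, with 4 to 18 counts per library and no call.

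Of 9 other transcription factor genes of the pathway, 1 rose and 1 fell. Irf8, which directs monocyte and dendritic cell development, fell from 112 ± 3.51 to 71.5 ± 17.2 CPM (log2 -0.64, SE 0.15), and Irf5 rose from 4.11 ± 1.04 to 7.01 ± 0.467 CPM (log2 0.77, SE 0.19; SD, n = 3 each). By total counts Irf5 stood at -0.36 and was not called. Irf2bp2 (-0.19) and Stat3 (-0.12) did not pass.

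Negative regulators gave 3 higher, 3 lower and 6 not called of 12. Usp18, which binds IFNAR2 and dampens the receptor, fell by 1.57 (SE 0.17), and the phosphatase gene Ptpn11 fell by 1.06 (SE 0.13). Rnf125, a ubiquitin ligase that marks RIG-I and MDA5 for destruction, rose by 0.77 (SE 0.11), and Ptpn2, a phosphatase of Janus kinases, rose by 0.60 (SE 0.10). By total counts Rnf125 (-0.37) and Ptpn2 (-0.54) were called lower.

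Of 25 target genes 11 fell, 2 rose and 12 were not called, at a median of -0.65. Rtp4 fell from 6.09 ± 0.548 to 1.16 ± 0.626 CPM (log2 -2.41, SE 0.36) and Oas2, an oligoadenylate synthetase gene, from 2.88 ± 0.214 to 0.852 ± 0.387 CPM (log2 -1.77, SE 0.34; SD, n = 3 each). Xaf1 fell by 0.80 (SE 0.15), and Oasl2 and Igtp fell by 1.64 and 1.21. Psmb8, a subunit gene of the immunoproteasome, rose by 1.03 (SE 0.07), though it stood at -0.10 and was not called by total counts. Mx1, whose promoter drives the Cre that the series' design names but the titles do not, had 14 to 59 counts per library, at 0.528 ± 0.214 CPM in WT and 0.533 ± 0.119 CPM in KO, and was not called.

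**Figure D5:**
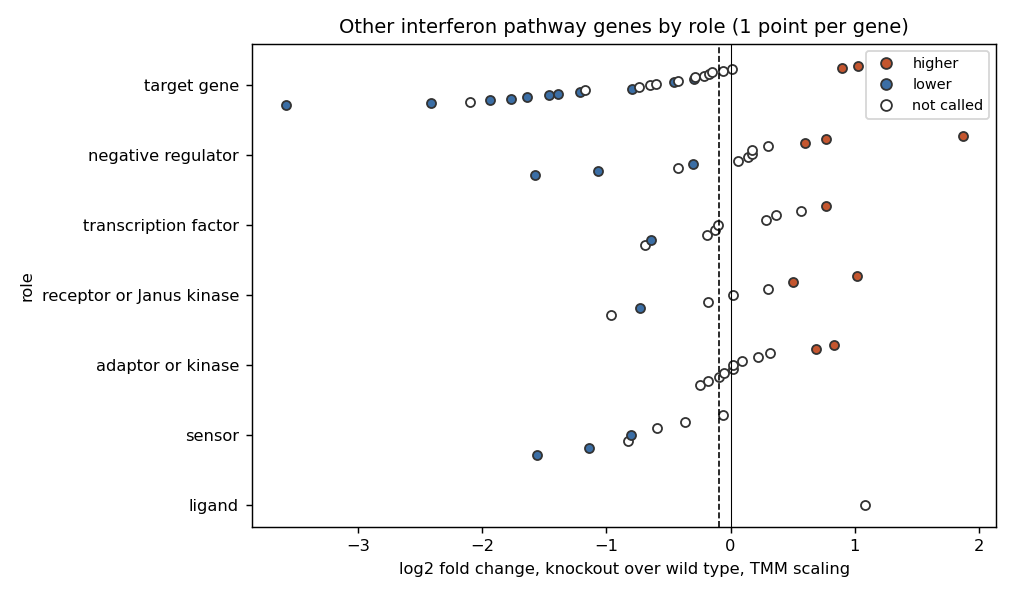
Log2 fold change, KO over WT under TMM, of the 72 other interferon pathway genes tested, 1 point per gene, grouped by role; red points were called higher, blue lower, white not called, and the dashed line is the median of all genes. Blue points number 11 among target genes, 3 among sensors and 3 among negative regulators. There is 1 among transcription factor genes and 1 among receptor or Janus kinase genes, and no adaptor or kinase gene is blue.

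Markers of other cell types were counted beside the 9 genes. Of 8 plasmacytoid dendritic cell genes in the table used, 2 fell (Tcf4 and Ly6d), 0 rose and 6 were not called, where 14.4% of all genes fell. With length and GC offsets Tcf4 did not pass (edgeR adjusted p = 0.0684). Their summed level was 79.2 to 82.7 CPM in WT and 60.6 to 63.0 CPM in KO under TMM, and 118 to 122 CPM and 40.0 to 42.8 CPM by total counts, and the defining markers Siglech and Spib were at 0 in at least 1 library. Of 9 monocyte and macrophage genes tested, 3 rose (Ly6c2, Lyz2 and Vcam1), 1 fell (Cd68) and 5 were not called, with C1qa, C1qc and Cd5l at 0 in at least 1 library. The 12 genes of the list summed to 1111 to 1213 CPM in WT and 3820 to 4200.1 CPM in KO (1596 to 1808 and 2598 to 2831 CPM by total counts). Ly6c2, at 709 CPM in WT and 3089 CPM in KO, and Lyz2, at 310 and 841 CPM, made up most of that sum. Csf1r, among those not called, stood at 23.2 CPM in WT and 22.8 CPM in KO. Of 13 B lineage genes, 3 rose (Jchain, Ighm and Igkc) and 6 fell (Cd79a, Cd79b, Ebf1, Vpreb1, Igll1 and Xbp1). Ms4a1 and Pax5 were at 0 in at least 1 library. The 13 genes summed to 13508 to 14470 CPM in WT and 41788 to 43921 CPM in KO. By total counts the sums were 20487 to 21351 and 27910 to 29866 CPM. Igkc, at 10848 CPM in WT and 35193 CPM in KO, and Ighm, at 2367 and 6336 CPM, made up most of the sum. Of 10 eosinophil, basophil and mast cell genes tested 6 rose and 0 fell, and the list summed to 6035 to 7211 CPM in WT and 45146 to 50855 CPM in KO (9153 to 10355 and 30928 to 33566 CPM by total counts), with Ccr3 at 0 in at least 1 library. Of 9 erythroid genes 4 rose and 1 fell, summing to 1039 to 1363 CPM in WT and 3389 to 4105 CPM in KO (1576 to 1957 and 2305 to 2709 CPM by total counts), with none at 0. Of 7 T and NK cell genes tested 1 rose (Nkg7) and 1 fell (Lck), with Cd4, Trac and Gzma at 0 in at least 1 library. The list summed to 3372 to 3437 CPM in WT and 6328 to 6742 CPM in KO. By total counts the sums were 4935 to 5115 and 4264 to 4585 CPM. Nkg7 alone, at 3380 CPM in WT and 6501 CPM in KO, made up nearly all of the sum. Lck fell from 7.66 to 3.83 CPM, and the other genes tested stood at 2.25 CPM (Cd3d in WT) or less and were not called. The part of these cells in the changes of the 9 genes was not tested.

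The authors' deposited table, made with DESeq2, lists Irf7 at -1.30 (log2, SE 0.32, adjusted p = 0.000333) and Stat2 at -1.09 (SE 0.33, adjusted p = 0.00521), and classes both as down. It classes the other 7 as stable, though it gives Irf1 (adjusted p = 8.47e-05), Irf9 (adjusted p = 0.000728) and Irf2 (adjusted p = 0.00492) an adjusted p under 0.05. Counting by strand was not given in the sources used here, and short exon stretches are shared with a neighbour by Irf1 (3.4% of its exon bases, Gm17334), Irf3 (2.56%, Bcl2l12), Irf9 (2.28%, Rnf31) and Irf7 (1.19%, Phrf1).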

How the data were processed

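The authors deposited 1 table with raw read counts per gene and library, length-scaled values and their own DESeq2 comparison. Per the submitters' processing notes, the tools were HISAT2 2.2.1, fastp 0.22.0, DESeq2 1.32.0 and featureCounts 2.0.1, on build mm10. The deposited length-scaled values carry no unit and were taken as FPKM, since for 762 genes with 1 transcript over 98% of values were a constant multiple of FPKM within 1%. From the authors' comparison, its deposited log2 fold changes and p-values were copied, and its mean signal and test score are not printed.

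From the counts, edgeR 4.0.16 (R 4.3.3) was run with filterByExpr, TMM, and the quasi-likelihood test with group as the only term, two-sided. Total counts as the only scaling, DESeq2 1.42.0 and the other alternatives were run beside it. A standard error is the log2 fold change over the square root of F, and an interval is the t interval that matches edgeR's p. The procedure was run on simulated data in which only a small share of genes changed. That run did not test the scaling under the shift in composition seen here. Replicates of a group differed by more than sampling noise. Genes were placed with GENCODE vM21 (18457 of 18491 IDs matched).

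The members and lists were chosen with earlier results of these data known. Named were all 9 genes and, per role, up to 4 pathway genes of lowest p (target genes 6), with the 3 genes most like Irf7; Mavs, Mx1, Tlr3 and Tlr9 were added after their values were seen. Of the pathway, 1 gene is not reported here and was left out of the list.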

Additional observations from a re-analysis of the deposited data

How the results depend on the processing

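Irf1 was called higher, and Irf7, Stat2, Irf9 and Irf2 lower, under size factor (RLE) and upper quartile scaling, both other count filters, DESeq2, exon length and GC offsets, the replicate block and without any 1 library. By total counts 0 of the 9 genes were higher and 9 lower, and Irf1 stood at -0.62; by totals without the 100 most abundant genes 0 were higher and 8 lower, with Irf1 at -0.10 and not called, where 8.07% of all genes were higher and 52.4% lower. Pathway genes then numbered 0 higher and 57 lower, and 3 higher and 49 lower. With length and GC offsets Pias1, Oas3, Ifi44 and Tap1 were not called lower, while Isg15, Ifi35 and Bst2 were; without 1 library pathway genes numbered 9 to 12 higher and 14 to 20 lower. The median of the 9 genes was -1.78 and -1.26 under those scalings, -0.42 with length and GC offsets, -0.42 with those and the block, and -0.69 to -0.54 without 1 library. Ifnar1, not called, stood at 0.083 with the offsets, 0.091 with offsets and block, and -0.14 to 0.036 without 1 library (above 0 only without WT replicate 3). The replicate block left 1 of the 9 genes higher and 4 lower. Deviations of same-numbered libraries correlated weakly (r of 0.041, -0.005 and 0.048, against -0.075 to 0.029 between different numbers). With 3 libraries per group this cannot settle whether the numbers pair libraries. Over all genes, lower calls dropped from 2229 to 1342 without WT replicate 2 and to 1433 without WT replicate 3. Ddx58 and Stat2 had the fewest counts on average, and of these Ddx58 did not pass. A protein comparison of the IRF genes was planned and not run, since protein sequences were not used here.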

Other observations

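The deposited FPKM of some of the 9 genes did not follow their counts by 1 length in every library. The length implied by count and FPKM ranged from 1366 to 3073 bases for Irf2, a 2.25-fold spread, from 2959 to 5269 bases for Stat2 (1.78-fold) and from 2857 to 4664 bases for Ddx58 (1.63-fold). For Irf1, Ifnar1, Irf9 and Irf3 the spread was 1.06- to 1.11-fold. Counts, not FPKM, were used for every test.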
